A study of Rattus norvegicus with 8 samples.

Results

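The enzymes that remove superoxide and peroxides were followed in the thyroid of X-irradiated rats. The list held Sod1, Sod2, Cat, Gpx1, Gpx3, Gpx4, Prdx1, Prdx5, Prdx6, and Txnrd1, and its members were found by gene symbol, 10 of the 30560 gene identifiers in the count table. All 10 were matched, and all 10 passed the filter on low counts in every comparison. RNA-Seq was performed on whole thyroid tissue of male Wistar rats, a laboratory strain, with 2 rats in each of 4 groups. At 1 week of age the neck was exposed to 4 Gy of X-rays in the 1w4Gy rats and to a sham procedure in the 1w0Gy rats. At 4 months the same was done to the 4m4Gy rats and the 4m0Gy rats. Thyroids were removed 8 weeks later, so the age groups differed in the age at treatment and in the age at sampling, and these cannot be told apart. In each group the study sequenced the RNA samples with the higher integrity, which limits how far a group stands for all of its rats.

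Superoxide dismutases turn superoxide into hydrogen peroxide. Catalase breaks hydrogen peroxide down directly, and the glutathione peroxidases reduce it with glutathione. The peroxiredoxins Prdx1 and Prdx5 reduce it with thioredoxin, which thioredoxin reductase recharges with NADPH. The thyroid makes hydrogen peroxide on purpose, because the coupling of iodine to thyroglobulin needs it, and the follicular cell therefore lives beside a constant peroxide source. Several of the enzymes, among them Gpx1, Gpx3, Gpx4, and Txnrd1, carry selenocysteine, and the thyroid is known for its high selenium content.

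Total counts were between 14835406 and 18138113 per sample, and thyroglobulin (Tg) took 18.5% to 21.3% of them. Levels are given as CPM, counts scaled to the library total and its composition with TMM. Cdkn1a, a p53 target known to respond to radiation, was used to check the dose labels. It lay at 14.3 to 17.4 CPM in the 4 sham-irradiated samples and at 38.2 to 46.5 CPM in the 4 irradiated samples. The summed level of 8 follicular cell markers, led by Tg, was 189640 to 224580 CPM, and no list held a marker at 0 in every sample, although Slc26a4, the anion exchanger pendrin, lay at only 0 to 0.389 CPM. Other cells were present too. Summed markers of C cells, led by Calca, were at 3332 to 8367 CPM, and those of parathyroid, led by Pth, at 2887 to 5462 CPM in all samples except 1w4Gy replicate 2 with 1943 CPM and 4m4Gy replicate 2 with 343 CPM. Skeletal muscle markers, led by Acta1, lay at 8.29 to 96.2 CPM and erythroid markers, led by Hba-a2, at 296 to 569 CPM. Fewer cells of a type and less RNA per cell cannot be told apart in tissue RNA.

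The promoter windows of the enzymes were searched for 4 motifs, among them the core letters of the antioxidant response element, the site through which NRF2 (Nfe2l2) is known to drive antioxidant genes. RefSeq windows from 250 bases before to 50 after each start, in assembly GRCr8, were found for 9 of the 10 enzymes (all but Prdx6), with 12 starts in all. The letters TGACNNNGC, searched on both strands, were present in 4 of the 12 windows, those of Prdx1, Prdx5, Sod2, and the downstream start of Txnrd1, and in 12.1% of all 33469 rat windows. The letters GGGCGG of the GC box were in 10 of the 12 windows, from 8 enzymes, and in 33.1% of all windows. CCAAT was in 6 of the 12 windows, from 5 enzymes, and in 37.5% of all windows, with 5 matches in that of Cat. The windows of Gpx4 starts 1 and 2 overlap, so sites they share are counted in each. TATAAA was in 2, those of Prdx1 and Sod1, and in 14.2% of all windows. The windows of the enzymes were rich in CpG, with 12 to 36 in all but the upstream Txnrd1 start, which had 5, against a median of 7 over all windows. The 4 matches to the antioxidant response element, whose pathway genes are described further on, are printed 5′ to 3′, with the TGACNNNGC letters or their reverse complement in capitals. For Prdx1, Sod2, and Txnrd1 the 250 bases before the start are given, and for Prdx5, whose match spans the start, the 30 bases around it.
Prdx1, chr5:135383656-135383905, plus strand: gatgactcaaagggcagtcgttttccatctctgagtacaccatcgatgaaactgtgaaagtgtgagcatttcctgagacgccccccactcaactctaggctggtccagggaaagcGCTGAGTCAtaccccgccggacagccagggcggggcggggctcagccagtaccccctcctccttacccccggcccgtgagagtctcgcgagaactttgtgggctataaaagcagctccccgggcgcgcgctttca
Sod2, chr1:50050169-50050418, minus strand: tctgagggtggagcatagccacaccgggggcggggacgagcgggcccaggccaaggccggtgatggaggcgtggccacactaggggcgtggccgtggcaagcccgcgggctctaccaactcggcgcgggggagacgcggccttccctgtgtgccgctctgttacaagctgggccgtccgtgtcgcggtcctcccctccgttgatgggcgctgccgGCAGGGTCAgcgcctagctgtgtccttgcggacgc
Txnrd1, downstream start, chr7:22755905-22756154, minus strand: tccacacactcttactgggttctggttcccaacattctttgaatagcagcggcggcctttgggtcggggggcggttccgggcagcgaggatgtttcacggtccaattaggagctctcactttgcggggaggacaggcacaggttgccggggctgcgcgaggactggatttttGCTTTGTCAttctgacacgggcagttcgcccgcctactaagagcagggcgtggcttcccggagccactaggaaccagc
Prdx5, chr1:213532008-213532037, minus strand: ctcctgtggGCAGAGTCAtctgcgggtggg
The capitals begin 135 bases before the start in Prdx1, 35 in Sod2, 78 in Txnrd1, and 1 in Prdx5. A match describes the letters only.

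Per transcript length, Prdx1 was the most abundant of the enzymes and Txnrd1 the least. Levels in RPKM, which divide the CPM by the transcript length in kilobases, averaged 567 for Prdx1 over the 8 samples. Gpx4 followed with 165, Sod1 with 127, Cat with 112, Gpx1 with 93.8, Gpx3 with 79.9, Sod2 with 56.7, Prdx5 with 48.6, Prdx6 with 35.2, and Txnrd1 with 24.0 RPKM. All of the enzymes were therefore well expressed, and their levels per length stood at or above those of 80.8% (Txnrd1) to 99.6% (Prdx1) of 14394 genes averaging 1 CPM or more. The ranges over the 8 samples of Sod1 (106 to 135 RPKM) and Cat (95.1 to 123 RPKM) overlapped, as did those of Cat and Gpx1 (80.4 to 108 RPKM), of Gpx1 and Gpx3 (59.4 to 93.9 RPKM), of Gpx3 and Sod2 (50.9 to 63.5 RPKM), of Sod2 and Prdx5 (42.5 to 55.6 RPKM). The ranges of Prdx1 (511 to 647 RPKM), Gpx4 (153 to 176 RPKM), Prdx6 (30.4 to 39.2 RPKM), and Txnrd1 (22.0 to 26.3 RPKM) did not overlap those of their neighbours. This order depends on which transcript stands for a gene. The Prdx5 transcript with the highest count is 3339 bases long, and its 3 shorter transcripts of 684 to 834 bases gave 140 to 170 RPKM, which would place Prdx5 near Gpx4. A Sod1 transcript of 710 bases gave 282 RPKM, against 127 for the 1597 bases used. Their total counts were nearly equal, at 26223 and 26526, so this difference follows the length and not the counts.

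**Figure D1:**
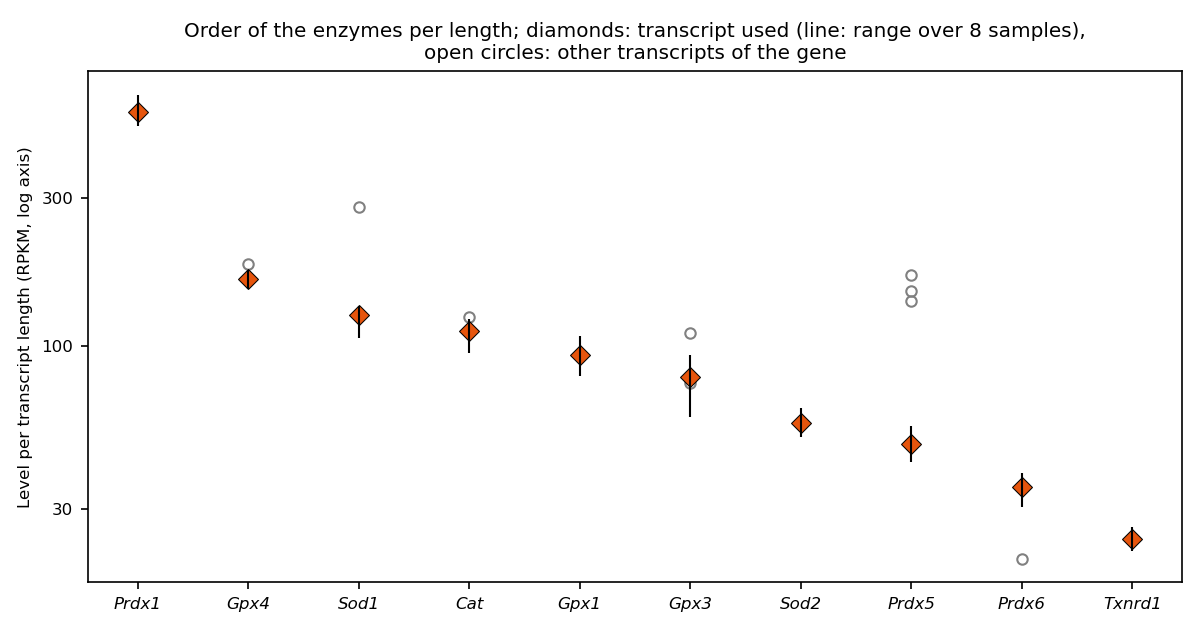
Mean level of each enzyme in RPKM (log axis) for the transcript used (diamond, with a line over the range of the 8 samples) and for other transcripts of the gene (open circles). Prdx1 is highest at 567 RPKM, Txnrd1 lowest at 24.0, and the places of Sod1 and Prdx5 shift most with the transcript.

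Levels of each enzyme varied little between the 8 samples. The highest sample exceeded the lowest by 1.15 times for Gpx4 and by 1.58 times for Gpx3, with the others between. The summed level of the 10 enzymes was 1992 and 1977 CPM in 1w0Gy, 2012 and 1874 in 1w4Gy, 1927 and 1832 in 4m0Gy, with 2144 and 2137 in 4m4Gy. Both 4m4Gy samples were thus above the other 6.

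**Figure D2:**
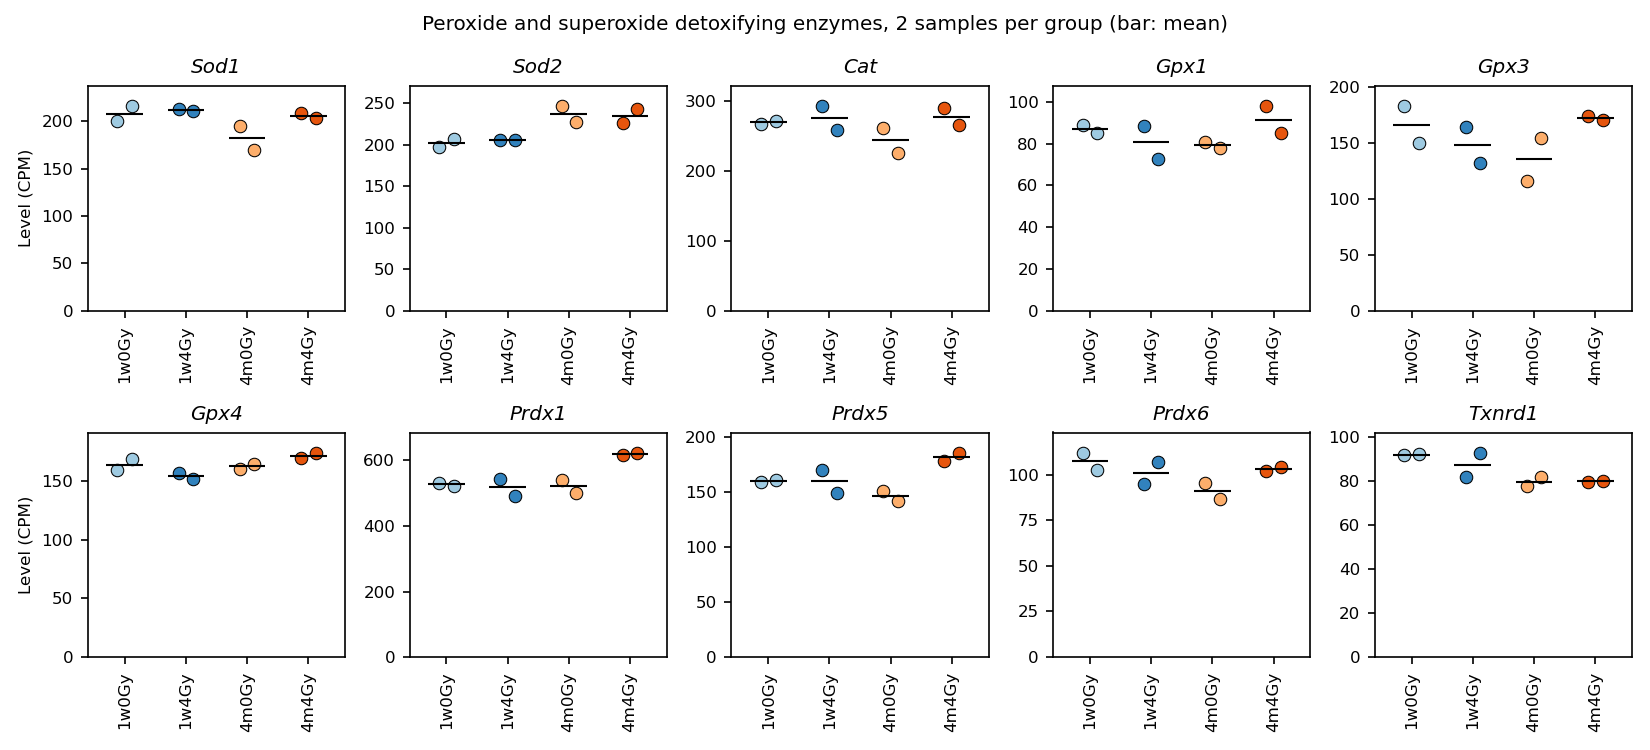
Level of each enzyme in CPM (axis from 0) in the 2 samples of each group, with the group mean as a bar. Both 4m4Gy points lie above both 4m0Gy points in 8 panels, and in the Sod2 panel all 4m points lie above all 1w points.

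Sod1, the copper-zinc superoxide dismutase of the cytosol, was measured at 200.3 and 216 CPM in 1w0Gy, 213 and 211 in 1w4Gy, 196 and 169.7 in 4m0Gy, with 209 and 203 in 4m4Gy. The lowest samples were the 4m0Gy pair, which lay below every other sample. Sod2, the manganese enzyme of mitochondria, was at 198 and 208 CPM in 1w0Gy, 206 and 205 in 1w4Gy, 246 and 228 in 4m0Gy, with 226 and 244 in 4m4Gy. It was the only enzyme of the 10 with every 4m sample above every 1w sample. Cat, the peroxisomal catalase, gave 268 and 272 CPM in 1w0Gy, 293 and 259 in 1w4Gy, 262 and 226 in 4m0Gy, with 290.2 and 266 in 4m4Gy. Replicate 2 of 4m0Gy was the lowest sample, and the irradiated pairs at both ages spread over a similar range.

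Gpx1, the cytosolic glutathione peroxidase, stood at 89.2 and 85.3 CPM in 1w0Gy, 88.6 and 72.6 in 1w4Gy, 80.9 and 77.9 in 4m0Gy, with 97.9 and 85.0 in 4m4Gy. The 1w4Gy samples lay farther apart than those of the other groups. Gpx3, the secreted form, was the most variable enzyme, with 183 and 149.8 CPM in 1w0Gy, 164 and 132 in 1w4Gy, 116 and 155 in 4m0Gy, with 175 and 171 in 4m4Gy. The samples of each of the other groups lay far apart, while the 4m4Gy pair was close together. All 3 Gpx3 transcripts carry the label of long non-coding RNA in the deposited annotation, and those of the other enzymes are labelled protein-coding. Gpx4, which reduces lipid peroxides in membranes, was the steadiest, at 159 and 169 CPM in 1w0Gy, 157 and 152 in 1w4Gy, 160.4 and 165 in 4m0Gy, with 169.6 and 174 in 4m4Gy.

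Prdx1, the cytosolic peroxiredoxin, was at 532 and 521 CPM in 1w0Gy, 543 and 492 in 1w4Gy, 542 and 499.6 in 4m0Gy, with 616 and 623 in 4m4Gy. The 4m4Gy pair lay apart above the other 6 samples. Prdx5, a peroxiredoxin of mitochondria and peroxisomes, also had its 4m4Gy pair above the other 6 samples, with 159 and 161 CPM in 1w0Gy, 170.3 and 149.6 in 1w4Gy, 151 and 142 in 4m0Gy, with 179 and 186 in 4m4Gy. Prdx6, which also reduces phospholipid peroxides, gave 112 and 103 CPM in 1w0Gy, 94.9 and 107 in 1w4Gy, 95.7 and 86.9 in 4m0Gy, with 102 and 104 in 4m4Gy, without a group that stood apart. Txnrd1, the reductase that keeps cytosolic thioredoxin charged, was at 91.8 and 92.1 CPM in 1w0Gy, 81.6 and 92.7 in 1w4Gy, 77.4 and 81.9 in 4m0Gy, with 79.6 and 80.0 in 4m4Gy. Its 4m samples lay low, but 1w4Gy replicate 1 was among them. RefSeq lists 15 pseudogenes named after 4 of the enzymes, 7 of them after Prdx1, 4 after Gpx4, 3 after Prdx6, and 1 after Sod2, and reads shared with such copies could move the counts of these genes.

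Neonatal irradiation was compared first, which asks whether thyroids irradiated at 1 week differed 8 weeks later from sham-irradiated ones. None of the 10 enzymes was called in 1w4Gy against 1w0Gy. Gpx3 showed the lowest value, 0.892-fold, and Cat the highest, 1.02-fold. Gpx4, with 159 and 169 CPM against 157 and 152, was the only enzyme whose groups did not overlap. On the log2 scale its difference was -0.09 (SE 0.09, adjusted p = 0.916 by the quasi-likelihood test of edgeR, Benjamini-Hochberg adjusted over 15359 genes). Of all genes, 0.00651% were called at an adjusted p under 0.05, and 35.5% had groups that did not overlap. At an unadjusted p under 0.05 there were 0 of the 10 enzymes, against 5.68% of all genes, and the DESeq2 Wald test called 0, against 0.143%. The median log2 difference of the enzymes was -0.05, with 3 of 10 above 0, where 50.0% of all genes were above 0. This number was 1 without 1w0Gy replicate 1 and 6 without 1w4Gy replicate 2. The 95% intervals of the 10 fold changes ran between 0.714-fold and 1.20-fold. In the same samples, summed adipocyte markers, led by Fabp4, were at 535 and 417 CPM in 1w0Gy and 281 and 304 in 1w4Gy, and endothelial markers, led by Pecam1, at 498 and 483 against 587 and 596. Parathyroid markers were at 4832 and 3293 CPM in 1w0Gy and 2887 and 1943 in 1w4Gy. Their part in the enzyme levels was not tested.

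After irradiation at 4 months most of the enzymes were higher in both irradiated samples, and none was called. Sod1, Cat, Gpx1, Gpx3, Gpx4, Prdx1, Prdx5, and Prdx6 were higher in both 4m4Gy samples than in both 4m0Gy samples, 8 of 10, where 22.0% of all 15253 genes were higher without overlap and 40.0% did not overlap in either direction. Prdx5 was at 182 ± 4.98 CPM in 4m4Gy and 147 ± 6.49 in 4m0Gy (SD, n = 2), 1.24-fold, with a log2 difference of 0.31 (SE 0.07, adjusted p = 0.315 by edgeR). Prdx1 was 1.18-fold higher, with a log2 difference of 0.24 (SE 0.08, adjusted p = 0.454 by edgeR). Gpx3 showed the largest difference, 1.27-fold or 0.34 on the log2 scale, with an SE of 0.14 and an adjusted p of 0.594 by edgeR. The log2 differences of Gpx1 (0.19), Cat (0.18), Prdx6 (0.17), and Sod1 (0.17) were close to each other, and that of Gpx4 was 0.07. Sod2 and Txnrd1 overlapped between the groups, at 0.985-fold and 0.996-fold, and their 95% intervals ran from 0.874 to 1.11 and from 0.887 to 1.12.

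At an unadjusted p under 0.05 there were 3 of the 10 enzymes, Gpx1, Prdx1, and Prdx5, against 8.39% of all genes, and log2 differences were above 0 for 8 of 10, against 51.9%. Over all genes edgeR called 0.0197%. DESeq2 called 0 of the 10 enzymes and 0.0524% of all genes. The median log2 difference was 0.17 for the enzymes and 0.01 for all genes tested. Gpx3 depended on single samples. Without 4m0Gy replicate 2 it was called, with a log2 difference of 0.56 and an adjusted p of 0.00568 by edgeR, and without 4m0Gy replicate 1 the log2 difference was 0.15 with an adjusted p of 0.613. In this comparison summed C cell markers were at 6213 and 7005 CPM in 4m0Gy and 8367 and 7187 in 4m4Gy. Of the 4 C cell genes, 3 were higher and 1 lower. The lower was Chga, at 2361 and 299 CPM in 4m4Gy. Erythroid markers were at 296 and 363 against 380.4 and 396. The part of either marker set in the enzyme levels was not tested.

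**Figure D3:**
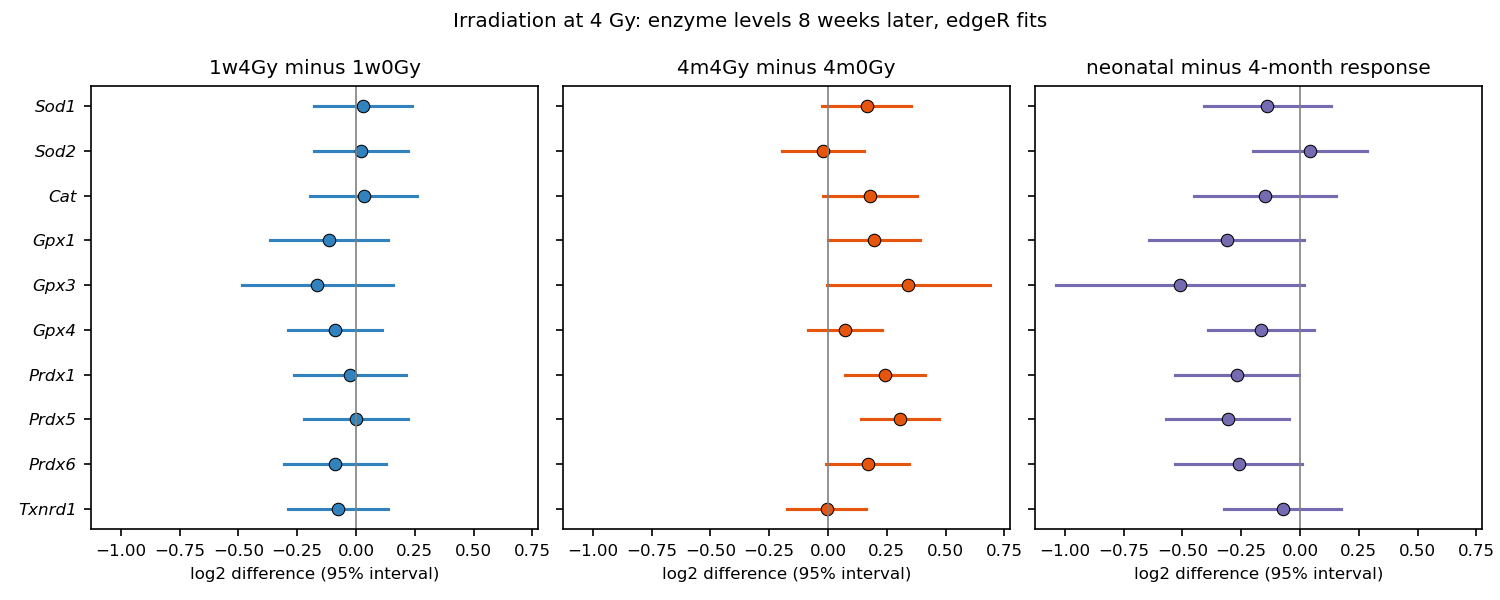
Log2 differences of the 10 enzymes with 95% intervals from edgeR for 1w4Gy minus 1w0Gy, for 4m4Gy minus 4m0Gy, and for the neonatal minus the 4-month response. The neonatal values lie between -0.17 and 0.03, 8 of the values at 4 months lie above 0.05, and 9 of the 10 differences between the responses lie below 0, with no enzyme called.

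The response to irradiation was compared between the ages with an interaction term over all 8 samples, taken as the neonatal minus the 4-month response. No enzyme was called, and none of the 15684 genes was (0%). The enzymes lay mostly below 0, 9 of 10, whereas 47.7% of all genes were above 0. The value for Prdx5 was -0.31 (SE 0.12, adjusted p = 0.490 by edgeR), for Prdx1 -0.27 (SE 0.12, adjusted p = 0.541 by edgeR), and for Gpx3 -0.51 (SE 0.23, adjusted p = 0.568 by edgeR). Prdx1 and Prdx5 passed an unadjusted p under 0.05, as did 9.12% of all genes. DESeq2 called 0 of the 10 enzymes and 0.166% of all genes. The interval for Prdx5, from -0.57 to -0.05, was not adjusted for the number of genes, and that for Gpx3, from -1.04 to 0.02, was the widest.

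With both ages combined and age as a covariate, irradiation showed no enzyme that was called. Prdx5 had the largest value, 1.11-fold with an interval of 0.992 to 1.25, and an adjusted p of 0.999 by edgeR. The groups overlapped for all 10, where 1.55% of all genes did not overlap. Of the 10 enzymes 8 were above 0 (5 without 4m0Gy replicate 2), against 50.5% of all genes, and 0 passed an unadjusted p under 0.05, against 3.89%. Over all genes edgeR called 0.0128% and DESeq2 0.0765%, with 0 of the enzymes among them.

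The age groups were next compared within a dose. This asks how the enzymes differ between rats treated at the younger age and rats treated at the older age. Thyroids were sampled weeks after the treatment, so age at treatment and age at sampling differ together. In sham-irradiated rats, 9 of the 10 enzymes were lower in 4m0Gy than in 1w0Gy and Sod2 was higher, and none was called. Over all genes edgeR called 1.06% in this comparison, and 50.0% were above 0. Sod1, Cat, Gpx1, Prdx5, Prdx6, and Txnrd1 were lower without overlap, 6 of 10, as were 25.1% of all genes. With Sod2 the groups of 7 of 10 did not overlap, against 50.2% of all genes in either direction. Sod2 was at 237 ± 12.9 CPM in 4m0Gy and 203 ± 6.95 in 1w0Gy (SD, n = 2), 1.17-fold, with a log2 difference of 0.23 (SE 0.07, adjusted p = 0.176 by edgeR). Txnrd1 was 0.867-fold as high, at 79.7 ± 3.17 CPM against 91.9 ± 0.225 (SD, n = 2), with an adjusted p of 0.186 by edgeR. Prdx6 was 0.850-fold as high (adjusted p = 0.202 by edgeR). These 3 passed an unadjusted p under 0.05, against 17.8% of all genes, and DESeq2 called 0 of the enzymes and 2.25% of all genes.

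In irradiated rats 7 of the enzymes lay on the other side of 0, while Sod2 was higher and Sod1 and Txnrd1 were lower at both doses. Some of these changes of side rest on values smaller than their SE. They were -0.014 for Gpx4 (SE 0.068) and -0.016 for Prdx1 (SE 0.075) in sham-irradiated rats. In irradiated rats they were 0.0099 for Cat (SE 0.10) and 0.031 for Prdx6 (SE 0.091). Each of these turned sign with a single sample left out. Of the 10, 8 were higher in 4m4Gy than in 1w4Gy, against 50.1% of all genes, and again none was called. Gpx3, Gpx4, Prdx1, Prdx5, and Sod2 were higher without overlap, 5 of 10, as were 25.0% of all genes. Sod1 and Txnrd1 were lower without overlap, so that 7 of 10 did not overlap, against 47.8% of all genes in either direction. Prdx1 was 1.20-fold higher, with a log2 difference of 0.26 (SE 0.10, adjusted p = 0.283 by edgeR), and was the only enzyme at an unadjusted p under 0.05, against 14.8% of all genes. Over all genes edgeR called 0.897% and DESeq2 2.04%, with 0 of the enzymes among them. Without 1w4Gy replicate 1, Gpx3 was called, at 0.38 on the log2 scale with an adjusted p of 0.0201 by edgeR, and without 1w4Gy replicate 2 it was at 0.069 with an adjusted p of 0.821, against 0.22 with all samples. The comparison of ages in sham-irradiated rats shares the 4m0Gy samples with irradiation at 4 months, and the comparison in irradiated rats shares the 4m4Gy samples with it, so these sets of values are not independent. The difference between both age comparisons is the interaction given above, which was not called for any enzyme.

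Over both doses, with irradiation as a covariate, Sod2 and Txnrd1 had the largest differences between the ages, in opposite directions. Sod2 was 1.15-fold higher in the 4m samples, with 226 to 246 CPM in the 4 samples of 4m0Gy and 4m4Gy and 198 to 208 in the 4 samples of 1w0Gy and 1w4Gy. Its log2 difference was 0.21 (SE 0.06), and the adjusted p was 0.0608 by edgeR, above the threshold, and 0.0199 by DESeq2, below it. Groups were apart without overlap for 1 of 10 enzymes, against 12.8% of all genes, 6.31% of them higher. Txnrd1 was 0.890-fold as high in the 4m samples (log2 difference -0.17, SE 0.06, adjusted p = 0.121 by edgeR). The others lay between 0.922-fold for Sod1 and 1.09-fold for Prdx1. Of the 10 enzymes, 5 were above 0, against 49.3% of all genes. Sod2 and Txnrd1 passed an unadjusted p under 0.05, 2 of 10, against 20.5% of all genes. Over all genes edgeR called 4.27% and DESeq2 6.62%.

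Summed markers of several cell types also differed between the ages, without showing whether cell numbers or RNA per cell differed. Summed fibroblast markers, led by Dcn, were at 1520 to 2062 CPM in the 1w samples and 663 to 884 CPM in the 4m samples. Macrophage markers, led by C1qa, were at 60.0 to 75.1 against 35.8 to 52.6 CPM. The erythroid sum, at 462 to 569 against 296 to 396 CPM, was nearly all Hba-a2. Slc4a1, the other erythroid marker, went the opposite way, at 2.97 to 5.51 against 6.57 to 9.12 CPM. Adipocyte markers were at 281 to 535 CPM in the 1w samples and 149.7 to 354 CPM in the 4m samples, which overlapped. Summed C cell markers lay on the other side, at 3332 to 5727 CPM in the 1w samples and 6213 to 8367 CPM in the 4m samples. This rested on Calca, at 1778 to 3186 against 4093 to 6775 CPM. Chga, at 1114 to 2452 against 299 to 2361 CPM, overlapped. It was lowest in 4m4Gy replicate 2, at 299 CPM, where Pth was lowest too, at 299 CPM, and Calca highest, at 6775 CPM. The cells that gave Chga were not tested. Of the 4 C cell genes, 2 were higher and 2 lower over both doses. The part of these cells in the difference of Sod2, Txnrd1, or any other enzyme was not tested.

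**Figure D4:**
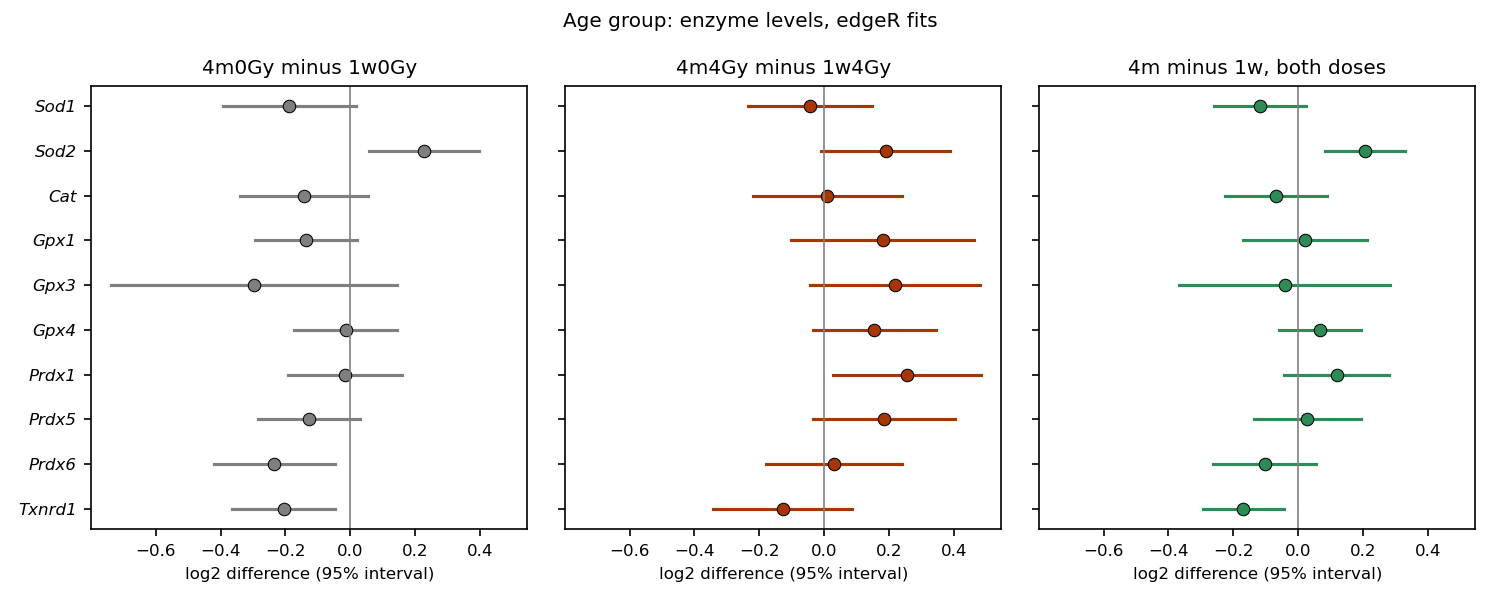
Log2 differences of the 10 enzymes with 95% intervals from edgeR for 4m0Gy minus 1w0Gy, 4m4Gy minus 1w4Gy, and 4m minus 1w over both doses. Sod2 is above 0 and Txnrd1 below 0 in each panel, Sod1 is below 0 in each too, and the other 7 lie below 0 in the sham-irradiated and above 0 in the irradiated rats, with no enzyme called by edgeR. Gpx4 and Prdx1 in the sham-irradiated rats and Cat and Prdx6 in the irradiated rats lie within their SE of 0.

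The other genes of the pathway were taken from 6 lists with 51 genes, of which 47 were matched by symbol and 46 passed the filter on low counts. Neither irradiation at 1 week nor irradiation at 4 months gave a call among the 46, and the same held for the interaction, for irradiation over both ages, and for age in irradiated rats by edgeR. In age over both doses edgeR called 3 of the 46, all lower in the 4m samples, where 2.39% of all genes were called lower. Hmox1, which degrades heme and is a known NRF2 target, was at 14.9 to 17.1 CPM in the 1w samples and 9.78 to 11.6 CPM in the 4m samples, and fell by 0.59 on the log2 scale (SE 0.10, adjusted p = 0.00942 by edgeR). Gpx7, a glutathione peroxidase of the endoplasmic reticulum, fell by 0.40 on the log2 scale, from 24.6 to 28.4 CPM in the 1w samples to 18.0 to 21.4 CPM in the 4m samples (SE 0.08, adjusted p = 0.0241 by edgeR). Scly, which frees selenium from selenocysteine, fell by 0.29 on the log2 scale (SE 0.06, adjusted p = 0.0166 by edgeR). Its levels were tight within groups, at 45.0 and 45.4 CPM in 1w0Gy, 45.4 and 45.0 in 1w4Gy, 35.0 and 35.5 in 4m0Gy, with 38.7 and 38.8 in 4m4Gy. Nqo1, from the same list as Hmox1, overlapped, at 40.8 to 65.7 CPM in the 1w samples and 42.3 to 68.7 CPM in the 4m samples. NRF2 activity was not measured. The part of macrophages or other cells, whose markers differed between the ages, in these pathway calls was not tested. Hmox1 was called under every setting tried. The call of Gpx7 was lost without 1w0Gy replicate 1 or 2, 4m0Gy replicate 1, or 4m4Gy replicate 1, and that of Scly without 1w0Gy replicate 1 or 2 or 4m0Gy replicate 1, with adjusted p of 0.0522 to 0.0697 by edgeR. In sham-irradiated rats alone, Gpx2, a glutathione peroxidase best known from the gut, was called, with 169 and 182 CPM in 1w0Gy and 133 and 133 in 4m0Gy. It fell by 0.40 on the log2 scale (SE 0.07, adjusted p = 0.0496 by edgeR), just under the threshold. This call was lost without 1w0Gy replicate 1 or 2 or 4m0Gy replicate 1, with adjusted p of 0.0673 to 0.243 by edgeR. It was also lost with DESeq2 size factors, no robust estimation, sums over transcripts, the replicate block, or 1 fit of all 8 samples, with adjusted p of 0.0513 to 0.211 by edgeR.

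Within the lists, the genes with the highest level per length were described. Among other enzymes of the same families, Prdx2, a cytosolic peroxiredoxin, averaged 244 RPKM and Sod3, the extracellular dismutase, 199 RPKM. In 4m4Gy against 4m0Gy Prdx2 was 1.14-fold (adjusted p = 0.546 by edgeR) and Sod3 0.964-fold. In the thioredoxin and glutaredoxin list, Txn1, the cytosolic thioredoxin, averaged 372 RPKM and Txnip, which binds thioredoxin, 268 RPKM. Both were higher in the 4m4Gy samples than in the 4m0Gy samples without overlap, at 1.13-fold and 1.21-fold, with adjusted p of 0.614 and 0.448 by edgeR. Of the 46 pathway genes 10 were higher without overlap, near the 22.0% of all genes. The median log2 difference at 4 months was 0.14 in this list with 6 of 7 above 0, and 0.10 in the list of related enzymes with 6 of 8 above 0. It was 0.07 over the 46 genes, with 31 above 0, where 51.9% of all genes were above 0.

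Genes that supply reducing power lay closer to 0 at 4 months, with a median of 0.01 over 7 genes. Pgd and Me1, which regenerate NADPH, led this list per length at 137 and 76.4 RPKM. Selenop, the selenium carrier of plasma, averaged 166 RPKM and Scly 18.8 RPKM, and the median of the 8 genes of selenoprotein synthesis and selenium supply was 0.03. Over both doses Selenop was 0.846-fold as high in the 4m samples (adjusted p = 0.107 by edgeR and 0.0482 by DESeq2). For the 9 genes of peroxide and superoxide production the median log2 difference was 0.01 at 4 months and 0.09 for age over both doses. Nfe2l2 averaged 60.9 RPKM and Ccs, the chaperone that loads copper into Sod1, 42.3 RPKM. Nfe2l2 was 1.06-fold in 4m4Gy against 4m0Gy (adjusted p = 0.866 by edgeR) and 0.849-fold in the 4m against the 1w samples (adjusted p = 0.146 by edgeR). After neonatal irradiation the median over the 46 genes was -0.002.

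**Figure D5:**
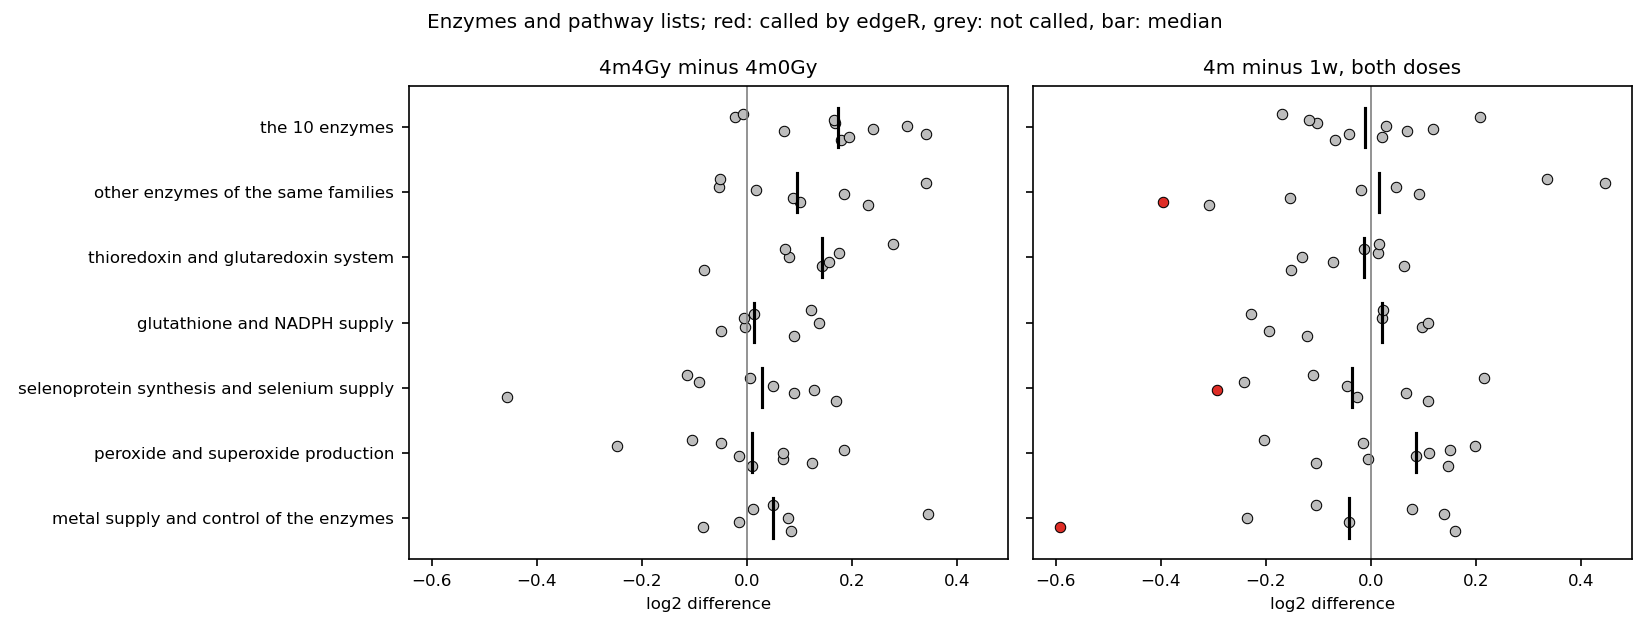
Log2 differences of the 10 enzymes and of 46 pathway genes in 6 lists, for 4m4Gy minus 4m0Gy and for 4m minus 1w over both doses, 1 point per gene, with the list median as a bar and genes called by edgeR in red. No gene is called at 4 months, and Gpx7, Scly, and Hmox1 are called lower with age.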

How the data were processed

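Per the labels and the methods of the study, total RNA of whole thyroids was sequenced after a directional library preparation. The authors mapped the reads with HISAT2 2.2.1 and counted them with featureCounts 2.0.0. The genome build and the treatment of reads with several matches are not given in the sources used here. The authors deposited raw counts for 54991 transcripts, which belong to 30560 gene identifiers (7162 lack a name), with the transcript length in bases. The 16 per-sample columns of RPKM and TPM that the authors deposited beside them were not used. Each gene was represented by its transcript of highest summed count. Counts were tested with edgeR 4.0.16 in R 4.3.3 (TMM, filterByExpr, the quasi-likelihood test with robust estimation, Benjamini-Hochberg adjustment over all genes, called at an adjusted p under 0.05), and with DESeq2 1.42.0 as an alternative. Irradiation and age within a dose were fitted on their own 4 samples, the other comparisons on all 8. CPM were scaled by TMM over the 8 samples, and 95% intervals use the degrees of freedom of the fit. The fits were tested on simulated counts with changes far larger than those of the enzymes. That test does not show which differences of the enzymes' size would be detected. The 2 samples of a group came from different rats and, summed over genes, differed beyond sampling noise (chi-square per degree of freedom 8.44 to 17.3). That value used library totals without TMM, gives abundant genes most weight, and was not computed for the enzymes. Whether this spread or the depth (median total 16180951.5) limits the precision for the enzymes was not tested. The named genes are all 10 enzymes, every called pathway gene, the 2 genes per pathway list with the highest level per length, and the most abundant gene of each of 9 marker lists, and some genes that this rule names are not reported here. Members and lists were chosen with earlier results of these data known. Prdx4, Srxn1, Cybb, Hbb, and Alas2 were among the genes not matched by symbol and were not analysed here, and Slc7a11 did not pass the filter. Alternatives were another normalization (DESeq2 size factors or upper quartile), no low-count filter or a minimum of 10 counts per sample, sums over transcripts or the longest transcript, 1 fit of all 8 samples, the replicate number as a block, and leaving out each sample. Sums over transcripts may count a read shared by several transcripts more than once. A fit without robust estimation and a short Prdx5 transcript were added after seeing the data.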

Additional observations from a re-analysis of the deposited data

Results flagged for a closer look

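Gpx4 and Prdx5 were singled out because both samples of a group moved one way under a contrast and both samples of another group the opposite way. For Gpx4, which reduces lipid peroxides in membranes, the 1w4Gy samples (157 and 152 CPM) lay below the 1w0Gy samples (159 and 169 CPM), with a log2 difference of -0.0909, while the 4m4Gy samples (169.6 and 174 CPM) lay above the 4m0Gy samples (160.4 and 165 CPM), with a log2 difference of 0.0715. Of all genes, 35.5% had groups without overlap at 1 week and 40.0% at 4 months. For Prdx5, the peroxiredoxin of mitochondria and peroxisomes, the 4m0Gy samples (151 and 142 CPM) lay below the 1w0Gy samples (159 and 161 CPM), with a log2 difference of -0.13, while the 4m4Gy samples (179 and 186 CPM) lay above the 1w4Gy samples (170.3 and 149.6 CPM), with a log2 difference of 0.19. Of all genes, 50.2% and 47.8% had groups without overlap in these comparisons. The share of all genes that moved in opposite directions by this rule was not computed. The flag alone therefore does not set Gpx4 or Prdx5 apart from other genes. The interaction term of edgeR, which tests both of these differences, did not pass the threshold for Gpx4 (-0.17, adjusted p = 0.669) or Prdx5 (-0.31, adjusted p = 0.490).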

How the results depend on the processing

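No enzyme was called by edgeR in any comparison under another normalization or filter, sums over transcripts, the longest transcript, 1 fit of all 8 samples or the replicate block, and DESeq2 called 1, Sod2 for age over both doses. With single samples left out, the number of enzymes called was 0 to 1 for irradiation at 4 months (Gpx3, without 4m0Gy replicate 2) and 0 to 1 for age in irradiated rats (Gpx3, without 1w4Gy replicate 1). Where this leaves 1 sample in a group, that sample is assumed to vary like the others. Of the pathway genes, the 1 called for age in sham-irradiated rats became 0 with DESeq2 size factors, the replicate block, sums over transcripts, 1 fit of all 8 samples or no robust estimation (chosen after seeing the data), and 3 with no filter. For age in irradiated rats the 0 became 1 with DESeq2, which called 2.04% of all genes, or 1 fit of all 8 samples. It became 2 with no filter or the replicate block. For age over both doses the 3 became 8 with DESeq2, which called 6.62% of all genes, against 4.27% by edgeR. With single samples left out, pathway calls also moved for irradiation at 4 months and for age within a dose, where 1 sample then stood for a group. For age over both doses they were 1 to 4 (1 without 1w0Gy replicate 2 or 4m0Gy replicate 1). The share of all genes called under the other settings, or with a sample left out, was not set beside these counts. The cause was not tested. Deviations of same-numbered samples correlated at 0.16 (1w0Gy and 1w4Gy), 0.12 (4m0Gy and 4m4Gy), -0.25 (1w0Gy and 4m0Gy) and 0.11 (1w4Gy and 4m4Gy) over genes, and no label ties equal numbers to a shared litter or batch, so the samples were not treated as paired; the replicate block changed no call of an enzyme.

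The direction of some log2 differences turned. For neonatal irradiation Prdx5 (-0.00043) became 0.00087 with DESeq2 or its size factors, 4.2e-05 with no filter, 6.2e-05 with at least 10 counts, 0.025 with sums over transcripts, 0.039 with the short transcript (chosen after seeing the data) and 0.00015 in 1 fit of all 8 samples. Txnrd1 at 4 months became 0.0048 with the upper quartile. Sod2 for irradiation over both ages became -0.00054 with DESeq2, -0.00061 with its size factors and -0.0060 with sums over transcripts. With single samples left out, the ranges that crossed 0 were, for neonatal irradiation, -0.27 to 0.026 (Gpx1), -0.100 to 0.048 (Prdx1), -0.098 to 0.094 (Prdx5), -0.058 to 0.12 (Cat), -0.025 to 0.090 (Sod1), -0.013 to 0.064 (Sod2) and -0.17 to 0.011 (Txnrd1). At 4 months they were -0.087 to 0.035 (Sod2) and -0.046 to 0.026 (Txnrd1), and in the interaction -0.015 to 0.10 (Sod2) and -0.17 to 0.011 (Txnrd1). For irradiation over both ages they were -0.028 to 0.13 (Gpx1), -0.038 to 0.21 (Gpx3), -0.037 to 0.025 (Gpx4), -0.018 to 0.099 (Prdx6), -0.021 to 0.031 (Sod2) and -0.067 to 0.0016 (Txnrd1). For age they were -0.062 to 0.032 (Gpx4) and -0.078 to 0.042 (Prdx1) in sham-irradiated rats, -0.054 to 0.12 (Prdx6) and -0.076 to 0.098 (Cat) in irradiated rats, and -0.063 to 0.068 (Gpx1), -0.15 to 0.094 (Gpx3) and -0.037 to 0.083 (Prdx5) over both doses. The number of enzymes above 0 was 8 or 9 under the settings run at 4 months, 1 to 6 for neonatal irradiation and 5 to 9 for irradiation over both ages.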
